A study of Mus musculus with 9 samples.

Results

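The enzymes and transporters that carry glucose to pyruvate and lactate, and pyruvate back to glucose, were examined as a set of 34 genes in mouse hepatic stellate cells. These liver pericytes store retinoids and become matrix-producing myofibroblasts on activation. Members were chosen by name, as the isozymes of 16 steps, and every non-control probe carrying a member's name was read. All 34 genes were named on the array, by 76 probes. Of these, 32 genes, out of 23965 in all, passed a filter on dim probes, which asked for signal above background on every array of some group. Slc2a4, the insulin-responsive glucose transporter, and Fbp2, the muscle fructose bisphosphatase, did not pass it. The isozymes Eno2, Aldoc and Fbp1, which mark the set, were all measured.

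Primary stellate cells came from C57BL/6 mice aged 10 weeks by collagenase perfusion and were plated and cultured with 10% fetal bovine serum. The 9 single-colour arrays formed 3 groups of 3. Cav1-siRNA cells (si-cav) were activated by 7 days on a hard plate and transfected overnight with 5 nM of an siRNA against Cav1, which encodes the caveolar coat protein caveolin-1. Control-siRNA cells (nc) had the same 7 days of culture and 5 nM of a negative control siRNA. Quiescent cells (qhsc) had no treatment, and the labels give no harvest time for them. Whether replicates of a group were separate animals or cultures is not given, so p-values measure only the spread among the samples, which may be technical. A comparison of nc with qhsc therefore spans culture, plate, time and transfection together, and these cannot be told apart.

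Glycolysis splits glucose into pyruvate, and most of its reactions run in either direction. Gluconeogenesis, which in mammals takes place mainly in liver and kidney, bypasses the irreversible steps with its own enzymes: PEP carboxykinase, fructose-1,6-bisphosphatase and glucose-6-phosphatase. Many steps have several isozymes encoded by separate genes and used in different tissues, so that hepatocytes, muscle, neurons and blood cells each hold a characteristic combination. Stellate cells are known to raise glycolysis when they become myofibroblasts.

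Levels are log2 signals relative to the array's 75th percentile, and a change is a difference of such group means from a limma fit over all genes, called at an adjusted p under 0.05. A level of 1 probe cannot be set against that of another probe, so isozymes are compared by their changes only. Between nc and qhsc, 16328 of 23965 genes (68.1%) were called, 42.1% higher and 26% lower in nc. Between si-cav and nc no gene was called by limma (smallest adjusted p = 0.097), and 1189 genes (4.96%) had an unadjusted p under 0.05. The median change over all genes was +0.319 for nc minus qhsc and -0.0351 for si-cav minus nc. Cav1 itself gave -2.87, -2.89 and -3.07 on si-cav arrays, -1.34, -1.12 and -1.09 on nc arrays, and -4.87, -5.65 and -5.84 on qhsc arrays. Its level in si-cav was 29.4% of that in nc (adjusted p = 0.145). The qhsc arrays varied most, with a median SD over genes of 0.119 in si-cav, 0.163 in nc and 0.354 in qhsc. The share of spots above background was 61.74 to 65.47% on si-cav, 63.49 to 70.31% on nc and 53.56 to 60.17% on qhsc arrays.

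Markers of other liver cells moved with the groups. All 16 hepatocyte markers were lower in nc than in qhsc (median change -11.27, or -10.68 with genes at background in nc set to their bound). Their mean level per array was -5.68 to -5.59 in si-cav, -5.55 to -5.12 in nc and 4.81 to 5.29 in qhsc, and 8 of 16 were not above background on any si-cav array and 6 of 16 on any nc array. Likewise all 11 endothelial, 12 macrophage, 11 lymphocyte or neutrophil and 5 erythroid markers tested were lower in nc. Other lists went both ways. Of 7 mesothelial and portal fibroblast markers, 3 were higher in nc (Wt1 +7.07, Upk3b +3.78 and Msln +2.74). The other 4 were lower (Krt18 -10.09, Krt8 -9.27, Entpd2 -2.86 and Eln -0.96). Of 4 cholangiocyte markers, 2 were higher (Spp1 +3.37 and Sox9 +0.71) and 1 lower (Krt19 -3.15). Of 11 stellate markers tested, 8 were lower and 1 higher in nc, and all 11 were above background on at least 1 qhsc array. Gfap did not pass the filter, and neither did Des, which was placed in the muscle list. Among 8 activation markers 7 were higher in nc. In bulk samples such as these, fewer cells of a type and less RNA per cell cannot be told apart, and the part that other cell types have in the changes below was not tested.

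Of the 32 tested members, each read by its brightest kept probe, 12 were higher and 10 lower in nc than in qhsc. So 68.8% were called, against 68.1% of all genes. The 3 arrays of each group did not overlap for 25 members (78.1%), against 69.8% of all genes. The median change of the members was +0.20, and the changes ran from -7.78 (G6pc) to +5.42 (Eno2), apart from Fbp1, Pck1 and Pklr, which were not above background in nc and are given as bounds. Shares near those of all genes give no result about the set as a whole. Within steps, the difference of log2 signals between 2 isozymes, or between 2 opposed enzymes, did not overlap between the 3 nc and the 3 qhsc arrays in 24 of 26 pairs. The share among pairs of other genes was not counted, and 69.8% of single genes already did not overlap. The pair count therefore gives no result particular to isozymes. The smallest p that 3 arrays against 3 can give in an exact permutation test is 0.1, and these 24 pairs all had it (two-sided, adjusted p = 0.11), so the pair tests cannot pass the threshold.

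**Figure D1:**
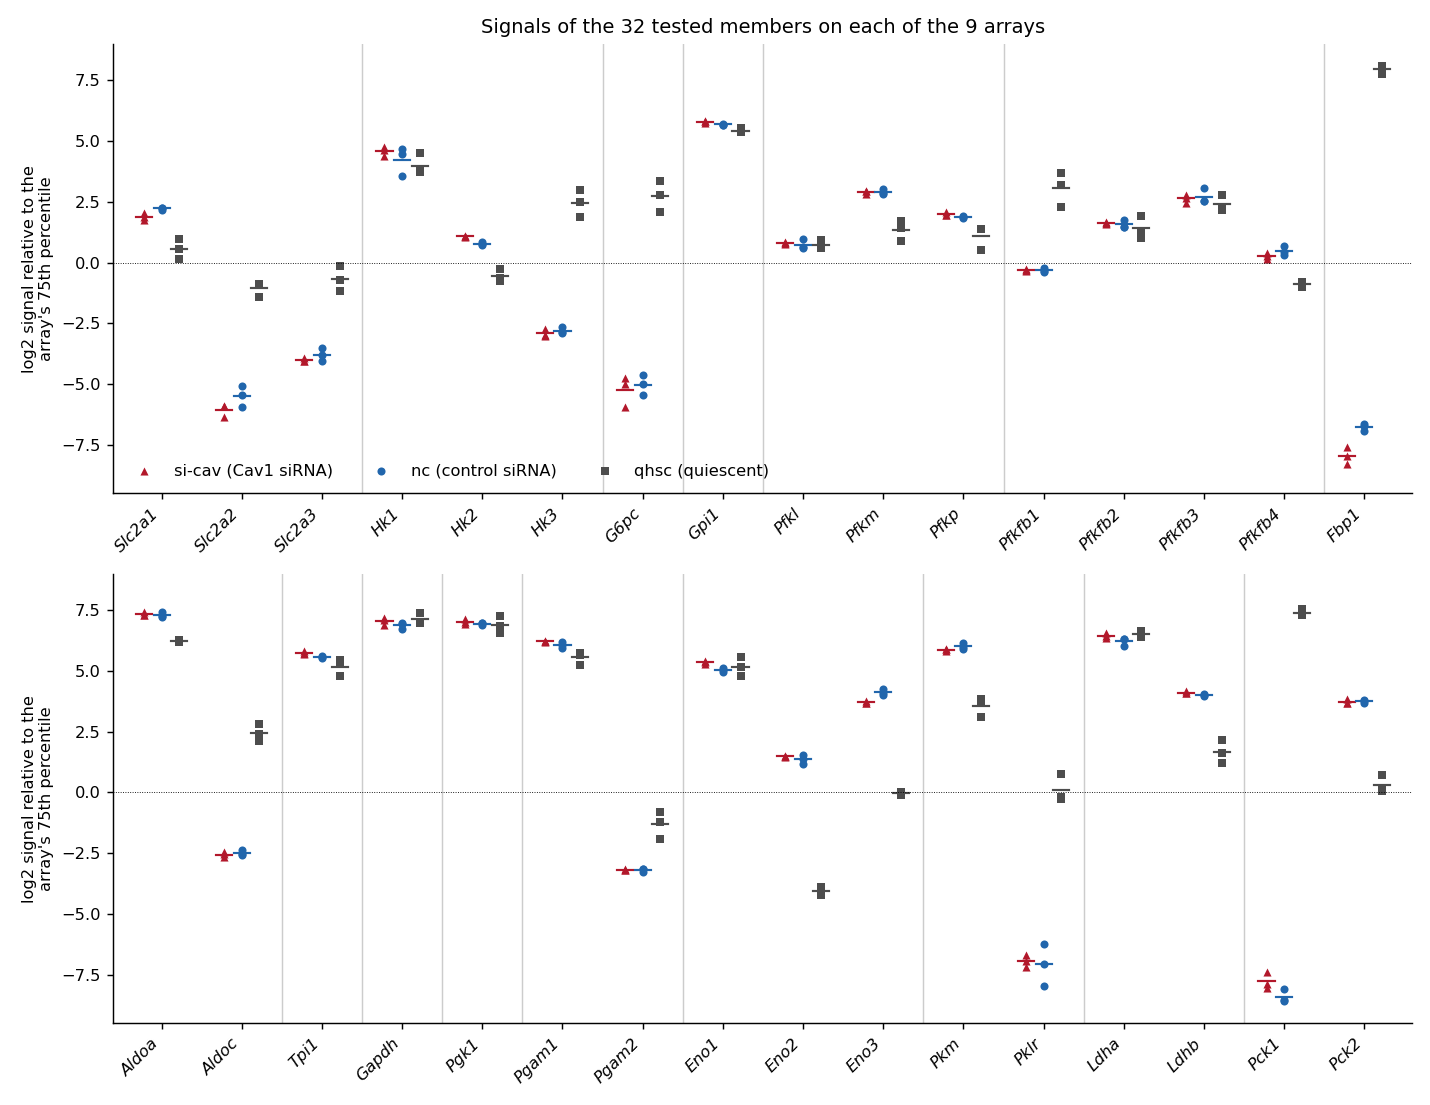
Log2 signal (y axis, relative to the array's 75th percentile) of the 32 tested members (x axis) on each array. Triangles are si-cav, circles nc and squares qhsc, with short bars for group means and grey lines between steps. Eno2, Eno3 and Pck2 sit higher in si-cav and nc than in qhsc, while Fbp1, Pck1 and G6pc sit lower. Heights of different genes come from different probes and are not comparable.

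The glucose transporters divided. Slc2a1 (GLUT1), the transporter of basal glucose uptake in most cultured cells, gave 2.03, 1.77 and 1.87 on si-cav arrays, 2.26, 2.23 and 2.18 on nc arrays, and 0.57, 0.99 and 0.15 on qhsc arrays. All nc arrays lay above all qhsc arrays, a 3.16-fold rise (log2 +1.66, SE 0.21, adjusted p = 8.9e-05). Slc2a2 (GLUT2), the low-affinity transporter of hepatocytes, gave -6.37, -5.9 and -5.91 on si-cav arrays, -5.08, -5.93 and -5.45 on nc arrays, and -0.89, -1.4 and -0.91 on qhsc arrays. It was 21.5-fold lower in nc (log2 -4.42, SE 0.25, adjusted p = 4.8e-07), alongside the hepatocyte markers. Slc2a3 (GLUT3), a high-affinity transporter of neurons and leukocytes, was also lower in nc (log2 -3.11, adjusted p = 5.19e-06). Slc2a1 changed by 6.08 more than Slc2a2 and by 4.77 more than Slc2a3 on the log2 scale.

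The start regions of this pair are shown beside a count of a short motif over the members. Windows of 250 bases before to 50 after a gene's start came from RefSeq (GRCm38.p6) for 32 members, and Slc2a3 and Slc2a4 were not matched. The motif searched was ACGTG or GCGTG on either strand, the core bound by hypoxia-inducible factors, of which ACGTG also lies within the E-box CACGTG. It was present in at least 1 window of 11 of the 12 members higher in nc, 3 of 9 lower members with a window, and 8 of 10 members that were not called. Pfkp, which had the motif, counts as higher by its brightest probe, although its kept probes disagreed in direction. Of all 27025 genes in that table, 46.7% had it. The windows also differed in CG dinucleotides, which both forms of the motif contain, with a median of 16.5 in windows of the higher members, 3.5 in those of the lower members, 20 in those not called, and 7 over all windows. Genes have unequal numbers of windows, and a match is a description of letters, not of binding. The 250 bases before the start are printed 5′ to 3′ on the gene's own strand, with motif matches in capitals, for Slc2a1 (plus strand, chr4:119108495-119108744) and Slc2a2 (plus strand, chr3:28697653-28697902).
Slc2a1: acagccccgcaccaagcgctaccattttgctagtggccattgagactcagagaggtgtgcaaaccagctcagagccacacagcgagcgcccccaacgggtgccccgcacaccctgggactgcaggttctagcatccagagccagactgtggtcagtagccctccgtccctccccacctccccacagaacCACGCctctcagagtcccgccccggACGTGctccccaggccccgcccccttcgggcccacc
Slc2a2: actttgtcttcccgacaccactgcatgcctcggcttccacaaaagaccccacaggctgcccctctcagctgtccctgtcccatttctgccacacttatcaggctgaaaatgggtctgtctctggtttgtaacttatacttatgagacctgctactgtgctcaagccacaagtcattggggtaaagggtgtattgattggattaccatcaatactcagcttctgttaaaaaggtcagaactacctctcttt
The Slc2a1 stretch held matches and the Slc2a2 stretch held none. Other members differ from this pair. Eno2, with the largest rise of the set, was the higher member without a match. Aldoc, Hk3 and Pfkfb1 were the lower members with one, and Ldha, which was not called, also had matches.

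Hexokinases trap glucose as glucose-6-phosphate. Hk2, the regulated hexokinase of muscle, fat and proliferating cells, gave 1.05, 1.1 and 1.09 on si-cav arrays, 0.76, 0.83 and 0.71 on nc arrays, and -0.65, -0.27 and -0.75 on qhsc arrays. It rose 2.5-fold in nc (log2 +1.32, SE 0.15, adjusted p = 5.51e-05). Hk3, the hexokinase of leukocytes, gave -3, -2.74 and -3.03 on si-cav arrays, -2.64, -2.85 and -2.91 on nc arrays, and 2.97, 1.87 and 2.48 on qhsc arrays. It was 37.6-fold lower in nc (log2 -5.23, SE 0.26, adjusted p = 1.78e-07), and its other probe gave -5.20. Macrophage markers moved with it, with mean levels per array of -2.61 to -2.48 in si-cav, -2.42 to -2.15 in nc and 4.39 to 5.16 in qhsc. Hk1, the widely expressed hexokinase, was not called (log2 +0.25, adjusted p = 0.51), and its 4 kept probes ran from -0.77 to +1.84. Hk2 changed by 6.56 more than Hk3.

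Glucose-6-phosphatase, which releases free glucose and opposes hexokinase, was lower. G6pc, its catalytic subunit in liver and kidney, gave -4.75, -5.96 and -4.98 on si-cav arrays, -5.02, -5.44 and -4.64 on nc arrays, and 2.8, 2.08 and 3.37 on qhsc arrays. It was 219-fold lower in nc (log2 -7.78, SE 0.40, adjusted p = 2.61e-07) and was still above background on all 3 nc arrays and 2 of 3 si-cav arrays. The change of Hk2 exceeded that of G6pc by 9.10. Gpi1, the isomerase that turns glucose-6-phosphate into fructose-6-phosphate, has no sister isozyme. It gave 5.82, 5.83 and 5.76 on si-cav arrays, 5.72, 5.67 and 5.66 on nc arrays, and 5.38, 5.36 and 5.54 on qhsc arrays. The nc arrays lay above the qhsc arrays without overlap, but the change was not called (log2 +0.26, adjusted p = 0.0877). It was called without qhsc replicate 3 (log2 +0.32, adjusted p = 0.0295), with normexp background correction (log2 +0.49, adjusted p = 0.00592) and by the mean of its 4 probes (log2 +0.30, adjusted p = 0.044).

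Phosphofructokinase commits sugar to glycolysis, and its muscle, liver and platelet subunits come from separate genes. Pfkm, the muscle subunit, gave 2.84, 2.95 and 2.95 on si-cav arrays, 3.04, 2.87 and 2.83 on nc arrays, and 1.42, 0.9 and 1.73 on qhsc arrays. It rose 2.96-fold in nc (log2 +1.56, SE 0.20, adjusted p = 0.000126). Pfkl, the liver subunit, gave 0.84, 0.75 and 0.79 on si-cav arrays, 0.96, 0.62 and 0.65 on nc arrays, and 0.61, 0.58 and 0.92 on qhsc arrays, and the groups overlapped (log2 +0.04, 95% confidence interval -0.32 to 0.39, adjusted p = 0.846). Pfkp, the platelet subunit, was called higher by its brightest probe (log2 +0.78, adjusted p = 0.0146), but its 5 kept probes did not move together. A further probe gave +0.70 and the other three gave -1.92, -2.03 and -2.32, and the mean of all kept probes was lower (log2 -0.96, adjusted p = 0.0149), so no direction can be given for Pfkp.

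The bifunctional PFK2 family makes and removes fructose-2,6-bisphosphate, the activator of phosphofructokinase. Pfkfb4, which is induced in hypoxic and tumour cells, gave 0.13, 0.39 and 0.27 on si-cav arrays, 0.68, 0.42 and 0.33 on nc arrays, and -0.79, -0.99 and -0.93 on qhsc arrays. It rose 2.6-fold in nc (log2 +1.38, SE 0.15, adjusted p = 3.45e-05). Pfkfb1, the liver form, gave -0.26, -0.36 and -0.31 on si-cav arrays, -0.23, -0.37 and -0.33 on nc arrays, and 3.2, 2.3 and 3.67 on qhsc arrays. It was 10.3-fold lower in nc (log2 -3.37, SE 0.30, adjusted p = 8.68e-06). Pfkfb2, the heart form, and Pfkfb3, the inducible form with strong kinase activity, were not called (log2 +0.15 and +0.29, adjusted p = 0.567 and 0.272), and the 2 did not differ in change beyond the arrays' spread (difference -0.14, exact permutation p = 0.9). Pfkfb2 was called when its 3 probes were averaged (log2 +0.96, adjusted p = 0.00187), since 1 of them gave +2.56, and without qhsc replicate 3 (log2 +0.40, adjusted p = 0.0462).

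Fructose-1,6-bisphosphatase runs the phosphofructokinase step backwards. Fbp1, the liver enzyme, was read by 1 probe at chr13:62966175-62966234 (mm9, minus strand) and gave -7.97, -8.28 and -7.59 on si-cav arrays, -6.65, -6.93 and -6.75 on nc arrays, and 8, 7.77 and 8.08 on qhsc arrays. It was not above background on any si-cav or nc array. It was therefore at least 17500-fold lower in nc (adjusted p = 6.27e-10), taking as its nc level the dimmest signal that passed the background test on each array. The fitted value of -14.72 is no bound. The hepatocyte markers had a median change of -11.27 over the same arrays.

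The aldolases, which cleave fructose-1,6-bisphosphate, moved in opposite directions. Aldoa, the muscle-type enzyme of most tissues, gave 7.29, 7.42 and 7.32 on si-cav arrays, 7.43, 7.21 and 7.26 on nc arrays, and 6.2, 6.18 and 6.28 on qhsc arrays. It rose 2.11-fold in nc (log2 +1.08, SE 0.13, adjusted p = 5.88e-05). Aldoc, the brain-type aldolase, gave -2.47, -2.54 and -2.67 on si-cav arrays, -2.36, -2.58 and -2.52 on nc arrays, and 2.14, 2.4 and 2.8 on qhsc arrays. It was 30.5-fold lower in nc (log2 -4.93, SE 0.18, adjusted p = 3.29e-08), and its 3 probes, the brightest at chr11:78140198-78140257 (mm9, plus strand), gave -5.48 to -4.82. Aldoa changed by 6.01 more than Aldoc.

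Steps of the lower pathway with 1 gene in the set were not called with the settings used throughout. Gapdhs and Pgk2, sisters of Gapdh and Pgk1 outside the set, were on the array but did not pass the filter. Tpi1, triose phosphate isomerase, gave 5.72, 5.83 and 5.74 on si-cav arrays, 5.59, 5.53 and 5.64 on nc arrays, and 5.28, 4.81 and 5.45 on qhsc arrays (log2 change in nc +0.41, adjusted p = 0.064). Gapdh, the dehydrogenase often used as a reference gene, gave 7.18, 6.91 and 7.12 on si-cav arrays, 6.73, 6.99 and 6.95 on nc arrays, and 7.39, 7 and 6.98 on qhsc arrays (log2 -0.23, adjusted p = 0.234). Pgk1, phosphoglycerate kinase, gave 7.13, 7.02 and 6.94 on si-cav arrays, 6.98, 6.91 and 6.96 on nc arrays, and 6.87, 6.56 and 7.25 on qhsc arrays (log2 +0.05, adjusted p = 0.804). The nc and qhsc arrays overlapped for Gapdh and Pgk1 but not for Tpi1. Gapdh was called lower after quantile normalization (log2 -0.40, adjusted p = 0.0217). Tpi1 was called higher with normexp background correction (log2 +0.61, adjusted p = 0.00688), without qhsc replicate 3 (log2 +0.54, adjusted p = 0.0168), and with a filter on all 9 arrays or an intensity trend (adjusted p = 0.0486 and 0.0359). Kept probes disagreed in sign for all of them, with the 7 Gapdh probes running from -0.23 to +0.42.

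The mutases, which convert 3-phosphoglycerate to 2-phosphoglycerate, were divided. Pgam1, the brain-type and general form, gave 6.23, 6.25 and 6.19 on si-cav arrays, 6.2, 5.97 and 6.07 on nc arrays, and 5.66, 5.27 and 5.75 on qhsc arrays. It was called 1.44-fold higher in nc (log2 +0.52, SE 0.16, adjusted p = 0.0155), a call lost after quantile normalization (log2 +0.15, adjusted p = 0.395) and without nc replicate 1 (adjusted p = 0.0505). Pgam2, the muscle form, gave -3.13, -3.21 and -3.19 on si-cav arrays, -3.16, -3.28 and -3.13 on nc arrays, and -1.21, -0.8 and -1.93 on qhsc arrays. It was 3.67-fold lower in nc (log2 -1.88, SE 0.25, adjusted p = 0.000156).

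Enolase, which makes phosphoenolpyruvate, showed the largest rises of the set. Eno2, the neuronal enolase, gave 1.51, 1.47 and 1.5 on si-cav arrays, 1.56, 1.36 and 1.18 on nc arrays, and -4.22, -4.06 and -3.89 on qhsc arrays. It rose 42.9-fold in nc (log2 +5.42, SE 0.15, adjusted p = 6.69e-09) and was above background on only 2 of 3 qhsc arrays. Eno3, the muscle enolase, gave 3.77, 3.7 and 3.68 on si-cav arrays, 4.25, 4.01 and 4.08 on nc arrays, and 0.02, -0.11 and 0.04 on qhsc arrays, a 17.5-fold rise in nc (log2 +4.13, SE 0.13, adjusted p = 1.23e-08). Eno1, the general enolase, gave 5.3, 5.37 and 5.41 on si-cav arrays, 4.95, 5.12 and 5.06 on nc arrays, and 5.58, 4.78 and 5.17 on qhsc arrays, with overlap between nc and qhsc. Its brightest probe was not called (log2 -0.14, adjusted p = 0.552), while a dim probe gave +2.03 and the mean of its 3 probes was called higher (log2 +0.54, adjusted p = 0.00363). Among muscle isozymes Eno3 and Pfkm rose and Pgam2 fell. Of 7 smooth muscle and muscle markers tested, 5 were higher in nc (Myh11, Cnn1, Mylk, Actg2 and Acta1). Myh4 was lower (log2 -1.02) and Myl1 was not called (log2 -0.69). Des and Ckm, also in that list, did not pass the filter.

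The 3 enolases are related in sequence, so a stretch of 30 bases of each probe is shown, 5′ to 3′. The longest run shared with another enolase probe is in capitals. The probes lie at chr6:124710388-124710447 for Eno2 (minus strand), chr11:70475953-70476012 for Eno3 (plus strand) and chr4:149622928-149622987 for Eno1 (plus strand), all on mm9.
Eno2: aatgaccaccaccattaAAGTCtgaatcac
Eno3: cccttctcccagAAATAAAcactgccaaac
Eno1: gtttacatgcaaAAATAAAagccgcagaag
Over the full 60 bases the longest run was 7 bases between Eno1 and Eno3, and 5 bases between Eno2 and either of the others. The probes of the pyruvate kinases, the aldolases and the PEP carboxykinases shared at most 6 bases within each pair. Probes were compared with each other only and not with the transcripts of sister genes. These runs therefore cannot show whether a probe separates the isozymes, which was not tested.

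Pyruvate kinase closes glycolysis. Pkm, which gives the M1 and M2 forms of muscle and proliferating cells, gave 5.91, 5.91 and 5.81 on si-cav arrays, 6.17, 5.98 and 5.92 on nc arrays, and 3.78, 3.87 and 3.1 on qhsc arrays. It rose 5.42-fold in nc (log2 +2.44, SE 0.21, adjusted p = 6.69e-06), and all 4 of its probes were called higher, with changes of 2.18 to 2.96. Pklr, the enzyme of liver and red cells, gave -7.17, -6.95 and -6.68 on si-cav arrays, -7.06, -7.95 and -6.24 on nc arrays, and 0.76, -0.25 and -0.2 on qhsc arrays. It was not above background on any si-cav or nc array and was at least 75.5-fold lower in nc (adjusted p = 6.04e-07). Hepatocyte markers were lower in nc by a median of -11.27 over 16 genes, and erythroid markers by a median of -10.79 over 5 genes tested (-8.81 with bounds).

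Lactate dehydrogenases interconvert pyruvate and lactate. Ldhb, the heart-type subunit, gave 4.08, 4.16 and 4.09 on si-cav arrays, 4.06, 4.01 and 3.97 on nc arrays, and 1.62, 2.18 and 1.22 on qhsc arrays. It rose 5.06-fold in nc (log2 +2.34, SE 0.22, adjusted p = 1.41e-05). Ldha, the muscle-type subunit that is a classic target of hypoxia-inducible factors, gave 6.56, 6.37 and 6.46 on si-cav arrays, 6.03, 6.3 and 6.32 on nc arrays, and 6.66, 6.41 and 6.46 on qhsc arrays. Its change was not called (log2 -0.30, 95% confidence interval -0.62 to 0.03, adjusted p = 0.0975), and Ldhb changed by 2.63 more than Ldha. Ldha was called lower after quantile normalization (log2 -0.61, adjusted p = 0.00128) and by the mean of its 2 probes (log2 -0.39, adjusted p = 0.0239).

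The PEP carboxykinases, which start gluconeogenesis from oxaloacetate, moved in opposite directions. Pck2, the mitochondrial enzyme, gave 3.69, 3.83 and 3.67 on si-cav arrays, 3.7, 3.79 and 3.77 on nc arrays, and 0.19, 0.7 and 0.08 on qhsc arrays. It rose 10.8-fold in nc (log2 +3.43, SE 0.18, adjusted p = 2.45e-07), with +2.77 from its other probe. Pck1, the cytosolic enzyme of hepatocytes, gave -7.9, -8.05 and -7.4 on si-cav arrays, -8.1, -8.55 and -8.57 on nc arrays, and 7.29, 7.33 and 7.54 on qhsc arrays. It was not above background on any si-cav or nc array and was at least 11900-fold lower in nc (adjusted p = 6.27e-10), with the hepatocyte markers lower on the same arrays. Their stretches before the start, printed as for the transporters, are at chr14:55540016-55540265 for Pck2 (plus strand) and chr2:173152823-173153072 for Pck1 (plus strand), on GRCm38.p6.
Pck2: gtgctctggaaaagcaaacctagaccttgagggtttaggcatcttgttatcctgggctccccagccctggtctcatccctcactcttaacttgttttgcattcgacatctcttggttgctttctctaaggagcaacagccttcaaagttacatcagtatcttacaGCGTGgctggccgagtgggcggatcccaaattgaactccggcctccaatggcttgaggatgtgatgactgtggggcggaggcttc
Pck1: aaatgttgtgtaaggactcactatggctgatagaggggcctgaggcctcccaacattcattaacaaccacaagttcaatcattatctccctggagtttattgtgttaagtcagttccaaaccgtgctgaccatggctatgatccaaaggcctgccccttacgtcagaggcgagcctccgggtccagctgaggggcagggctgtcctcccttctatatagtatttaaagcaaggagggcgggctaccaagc
The Pck2 stretch held 1 motif match and the Pck1 stretch held none.

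**Figure D2:**
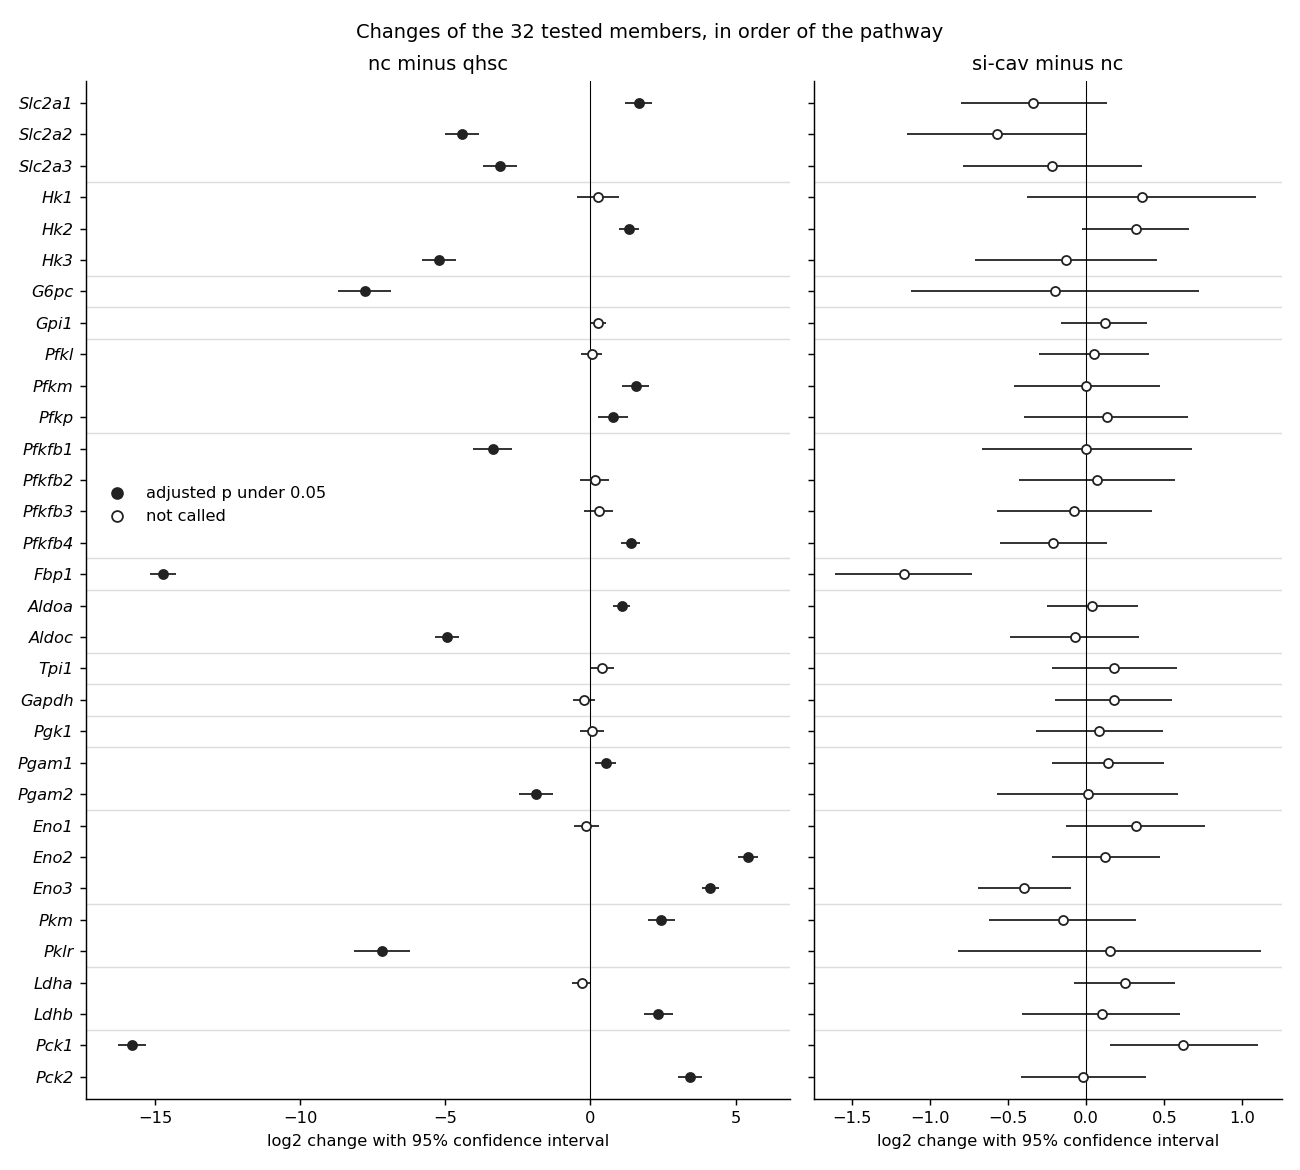
Log2 changes (x axes) with 95% confidence intervals of the 32 members (rows, in pathway order), nc minus qhsc on the left and si-cav minus nc on the right, on different scales. Filled points had an adjusted p under 0.05: 22 members on the left and none on the right. For Fbp1, Pklr and Pck1 the left points are fitted values and not bounds, and the right points compare groups in which the probe was not above background.

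**Figure D3:**
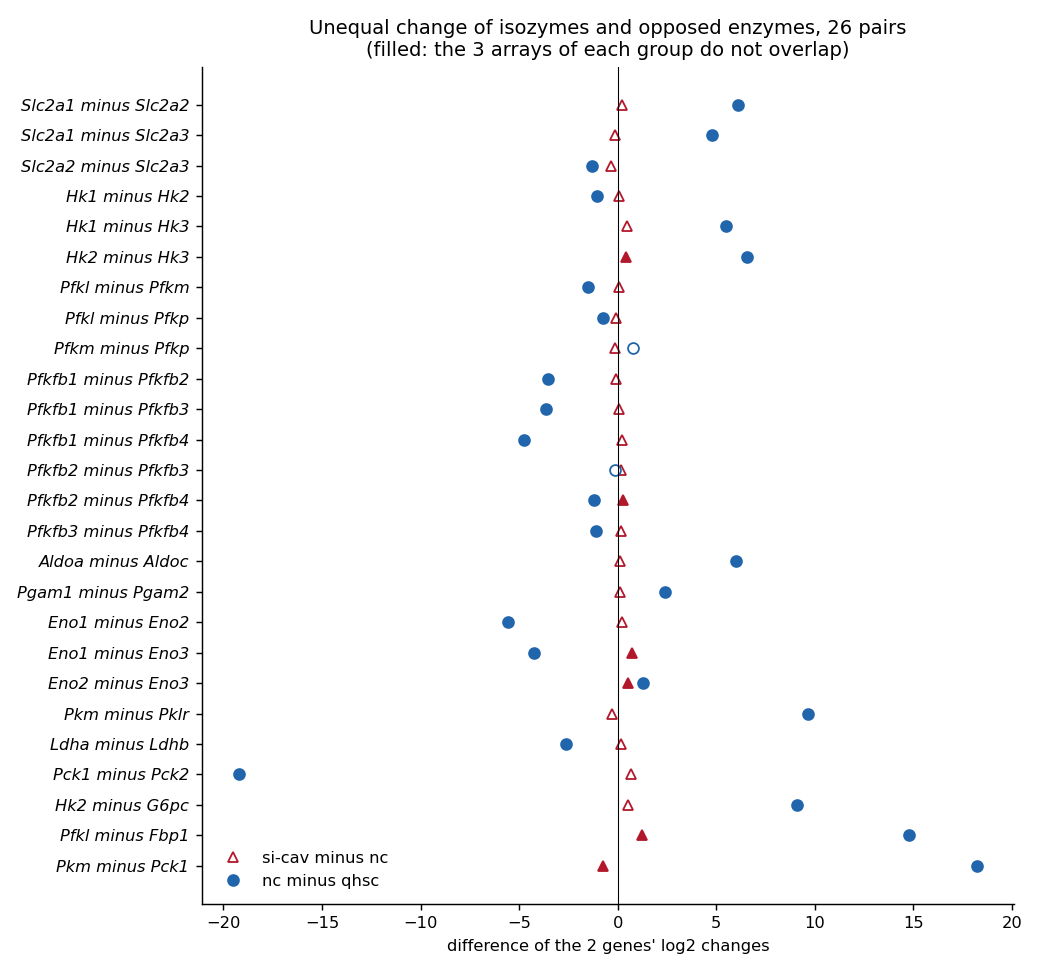
Difference between the log2 changes of 2 genes (x axis) for 26 pairs of isozymes or opposed enzymes (rows). Triangles are si-cav minus nc and circles nc minus qhsc; filled symbols are pairs whose 3 arrays of each group did not overlap, 6 and 24 pairs. Pairs with Fbp1, Pck1 or Pklr rest on probes at background in si-cav and nc, so their positions are fitted values and not measured sizes. Among the other pairs, circles reach 9.10 for Hk2 minus G6pc and triangles 0.71 for Eno1 minus Eno3.

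For nc minus qhsc, the pairs that overlapped between the groups were, among the 26, Pfkm with Pfkp (difference 0.79, exact permutation p = 0.4) and Pfkfb2 with Pfkfb3. Some pairs without overlap were still small beside the arrays' spread. Pfkl minus Pfkp changed by -0.74, with an SD of 0.15 in nc and 0.7 in qhsc. Hk1 minus Hk2 changed by -1.07, with an SD of 0.59 in nc and 0.58 in qhsc. Kept probes of Pfkp and Hk1 also disagreed in sign. Among the opposed enzymes, Pkm changed by 18.23 more than Pck1 and Pfkl by 14.76 more than Fbp1, fitted values that rest on probes at background in nc.

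Probe choice mattered for some members. Of 18 members with more than 1 kept probe, 8 had probes of opposite sign in nc minus qhsc: Hk1, Pfkl, Pfkp, Pfkfb3, Tpi1, Gapdh, Pgk1 and Eno1. The other 10 agreed in sign, among them Hk3, Aldoc, Pkm, Ldhb and Pck2, although the Pfkfb2 probes ran from +0.15 to +2.56. For Pfkl, Pfkfb3, Gapdh and Pgk1 no kept probe was called on its own, so their opposite signs may be scatter. The dimmer Pgk1 probe also lies on the opposite strand to the brightest one. A further 12 members had 1 probe on the array, including Eno2, Eno3, Fbp1 and Pck1, so their changes rest on a single sequence.

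**Figure D4:**
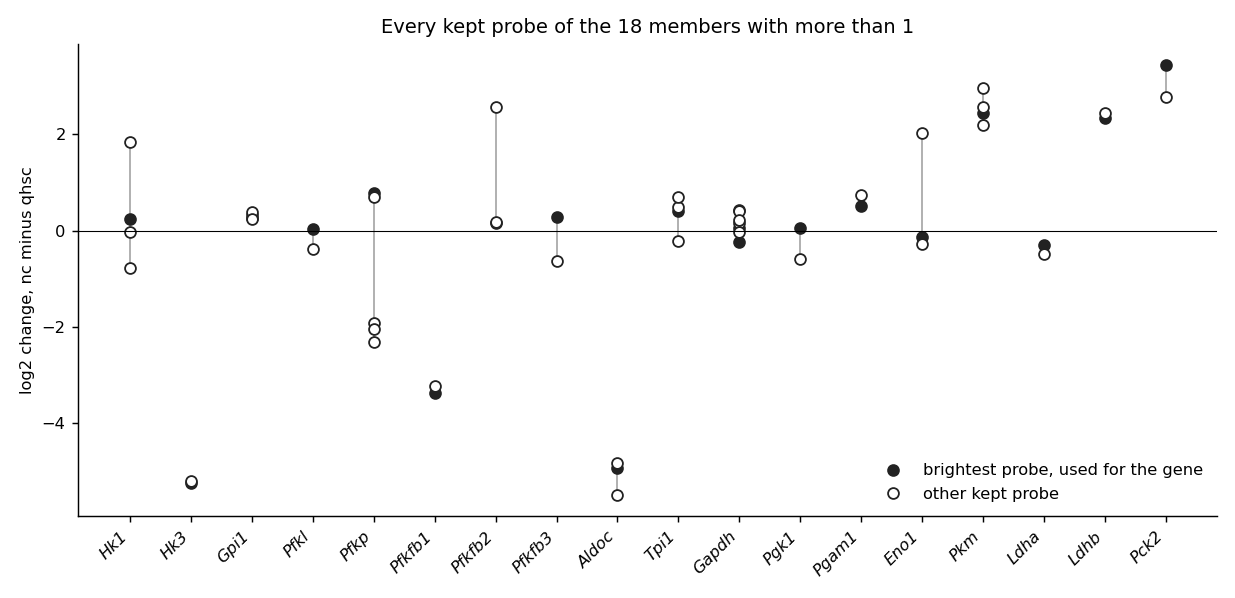
Log2 change, nc minus qhsc (y axis), of every kept probe of the 18 members with more than 1 (x axis). Filled points are the brightest probe, which stood for the gene, and open points the others. Pfkp probes run from -2.32 to +0.78 and Eno1 probes from -0.28 to +2.03, while the probes of Hk3 and Ldhb lie close together.

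The direction of the called members was the same on 1 slide alone. Slide 1 held the 3 qhsc arrays and nc replicate 1, and slide 2 the other nc arrays and all si-cav arrays. Against nc replicate 1 alone, all 22 called members kept their sign and 18 of 32 were called (56.2%; 8 higher, 10 lower), against 7615 of 23965 genes (31.8%), without Aldoa, Hk2, Pfkp and Pgam1 (adjusted p = 0.0565, 0.0556, 0.266 and 0.297). The lone nc array is assumed there to vary like the qhsc arrays. Leaving out qhsc replicate 2, the array of lowest estimated weight, left 22 members called. With another background correction (normexp with an offset of 50), which compresses dim signals, the same 22 stayed called in the same direction, but changes that rest on dim signals were smaller: +3.63 for Eno2, -5.55 for G6pc, -2.45 for Slc2a2 and -2.04 for Slc2a3. Fbp1, Pck1 and Pklr gave fitted values of -11.11, -10.79 and -3.65 there, smaller than the bounds above, which hold for the processed signal only.

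After the siRNA against Cav1, no member was called relative to the control siRNA by limma, 3 of 32 had an unadjusted p under 0.05, and 12 members (37.5%) did not overlap between the groups, against 22.6% of all genes. The median change of the members was +0.04. Eno3 was lower on all 3 si-cav arrays than on all 3 nc arrays (log2 -0.40, 95% confidence interval -0.69 to -0.10, adjusted p = 0.782). Fbp1 and Pck1 also had an unadjusted p under 0.05 (fitted -1.17 and +0.62, adjusted p = 0.316 and 0.807), but neither was above background in either group, so no fold is given. Slc2a2 (log2 -0.57) and Hk2 (log2 +0.32), next by p-value, both had an adjusted p of 1. The Hk2 arrays did not overlap, all 3 si-cav arrays lying above all 3 nc arrays, whereas those of Slc2a2 did.

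With slide 2 alone, which holds nc replicates 2 and 3, no member was called either, and Eno3 gave -0.33 (adjusted p = 0.221). Under estimated array weights 4 of 32 members (12.5%) were called, against 656 of 23965 genes (2.74%). They were Eno3 (-0.37) and Hk2 (+0.32), and also Fbp1 and Pck1, which were not above background in either group, with adjusted p of 0.0295 to 0.0445. The 95% confidence intervals of other members were as follows: Pkm changed by -0.15 (95% confidence interval -0.62 to 0.32), Eno2 by +0.12 (-0.22 to 0.47), Aldoa by +0.04 (-0.25 to 0.33) and Ldha by +0.25 (-0.08 to 0.57). These intervals include the scatter of the qhsc arrays and not only that of the groups compared. For Pkm the SD was 0.06 in si-cav, 0.13 in nc and 0.42 in qhsc. With only the 2 groups compared in the fit, no member was called either.

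Among single genes 22.6% did not overlap between si-cav and nc, and the share among pairs of other genes was not counted. Of the 26 pairs, 6 did not overlap between si-cav and nc, each at the smallest possible exact permutation p of 0.1 (adjusted p = 0.43). Eno3 took part in 2 of them, with Eno1 changing by 0.71 and Eno2 by 0.52 more than Eno3. The others were Hk2 with Hk3 (0.44), Pfkfb2 with Pfkfb4 (0.28), and the pairs of Pfkl with Fbp1 and Pkm with Pck1, which rest on signals at background.

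Set directly against quiescent cells, si-cav had 24 members called, 14 higher and 10 lower (75%, against 67.6% of all genes, 40.4% higher and 27.2% lower). This comparison shares its arrays with the others, and its groups lay on different slides. With the slide as a block, which leans on the nc arrays of both slides, 21 members were called (11 higher, 10 lower) and 10141 of all genes (42.3%). Eno2 changed by +5.55 in si-cav and +5.42 in nc relative to qhsc, Eno3 by +3.73 and +4.13, Pck2 by +3.41 and +3.43, and Aldoc by -5.01 and -4.93. Fbp1, Pck1 and Pklr were at least 15900-fold, 10800-fold and 69.2-fold lower in si-cav. Gpi1 and Tpi1 were called here (log2 +0.38 and +0.59, adjusted p = 0.0219 and 0.0149) and not in nc minus qhsc, a contrast between calls that was itself not significant (si-cav minus nc +0.12 and +0.18, adjusted p = 1 for both).

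Sister isozymes outside the set also moved in both directions. Of 7 tested, 2 were higher and 4 lower in nc (median -0.99, against +0.319 over all genes). Ldhd, a mitochondrial D-lactate dehydrogenase, was lower (log2 -9.13, adjusted p = 7.14e-09). Hkdc1, a hexokinase-like enzyme, was at least 2.8-fold higher, and G6pc3, the ubiquitous glucose-6-phosphatase subunit, was higher (log2 +1.54, adjusted p = 7.76e-06).

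Pyruvate and lactate handling had 5 genes higher and 12 lower of 21 (median -0.75). Slc16a1 (MCT1), a lactate and pyruvate carrier of the cell surface, rose (log2 +2.97, adjusted p = 1.55e-06), as did Pdk3, a kinase that switches off pyruvate dehydrogenase (log2 +2.71). Slc16a7 (MCT2), a carrier of higher affinity, fell (log2 -4.41, adjusted p = 7.02e-06, above background on only 1 of 3 nc arrays), and so did Pcx, the pyruvate carboxylase that feeds gluconeogenesis (log2 -4.11). In the pentose phosphate pathway 3 genes were higher and 2 lower of 10 (median 0). G6pdx, its first dehydrogenase, rose (log2 +2.32, adjusted p = 3.1e-06) together with the transketolase Tkt (log2 +1.11). Shpk, sedoheptulokinase, fell (log2 -3.26), as did the transaldolase Taldo1 (log2 -1.17).

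Glycogen genes were divided between isozymes as well, 7 higher and 9 lower of 18 (median -0.26). Gys1, the muscle-type glycogen synthase, rose (log2 +2.39, adjusted p = 6.36e-07) and Gys2, the liver synthase, was at least 3290-fold lower (adjusted p = 4.67e-09). Phkg1, the muscle-type catalytic subunit of phosphorylase kinase, rose (log2 +2.28, adjusted p = 0.00281, above background on only 1 of 3 qhsc arrays), and Pygl, the liver phosphorylase, fell (log2 -10.66, adjusted p = 3.63e-09). Genes of hepatic fructose, glycerol and glucose export were mostly lower, with 9 lower and 1 higher of 10 (median -3.4). Among them were Gckr, a regulatory protein of hepatic sugar phosphorylation (log2 -10.29), and Gpd1, the cytosolic glycerol-3-phosphate dehydrogenase (log2 -8.87), while Gpd2, its mitochondrial counterpart, rose (log2 +0.57, adjusted p = 0.0139).

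Among 21 regulators tested, 4 were higher and 12 lower in nc (median -0.71). Hif1a, a subunit of the hypoxia-inducible factor, rose (log2 +0.96, adjusted p = 9.11e-05), and so did Vhl, which marks that factor for degradation (log2 +1.29). Hnf4a, a transcription factor of hepatocytes, was at least 5120-fold lower. Hypoxia-responsive genes outside glycolysis split evenly, with 6 higher and 6 lower of 15 (median -0.15). Car12, a carbonic anhydrase, was at least 9.91-fold higher, whereas Bnip3, a mitophagy receptor, and Adm, adrenomedullin, fell (log2 -3.74 and -2.56). In si-cav minus nc no gene of these 7 lists was called by limma, and their medians lay between -0.06 and +0.04.

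**Figure D5:**
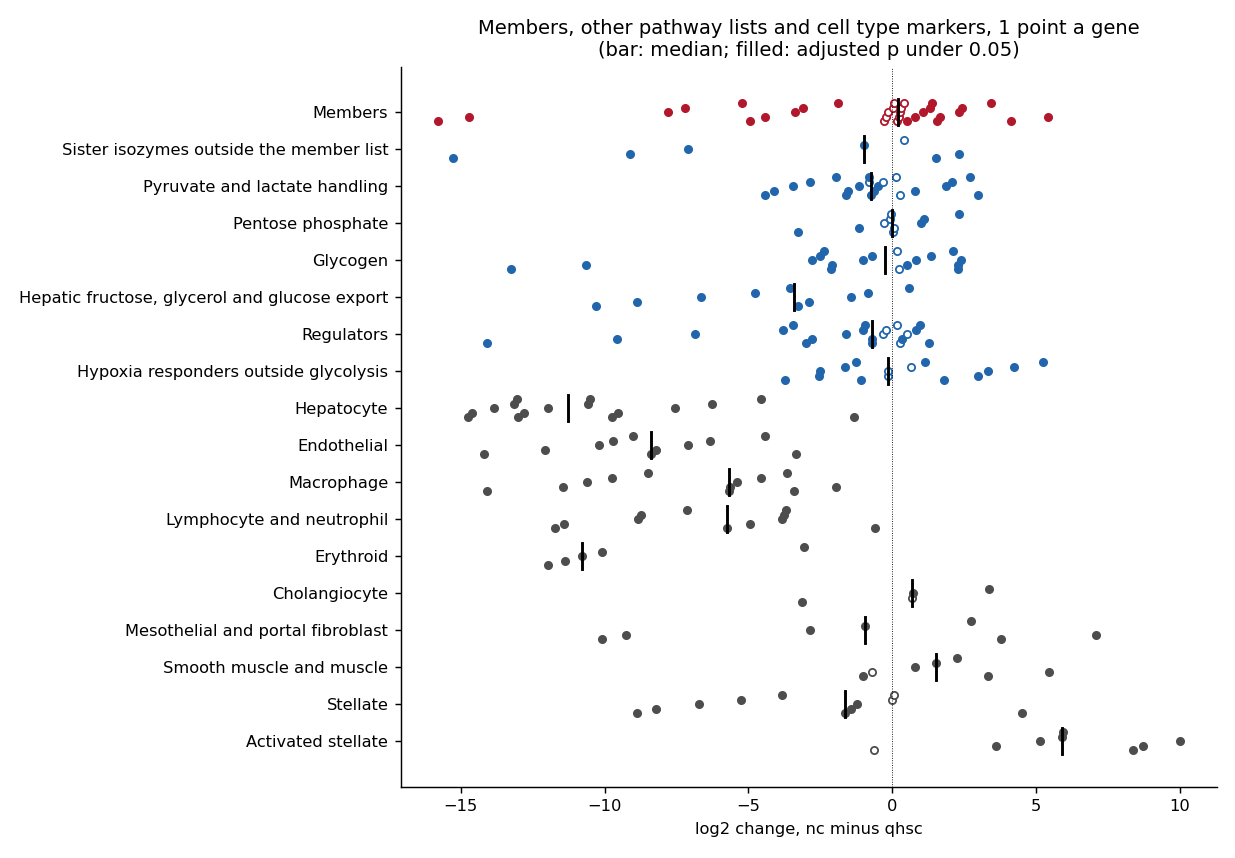
Log2 change, nc minus qhsc (x axis), of the 32 members, 7 other pathway lists and 10 marker lists (rows), 1 point a gene, with a bar at each median. Filled points had an adjusted p under 0.05. The members spread on both sides of 0 around a median of +0.20, while the 16 hepatocyte markers all lie below 0 around -11.27.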

How the data were processed

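RNA of 9 samples was labelled with Cy3 and hybridised to single-colour Agilent arrays, and the scans were processed in Agilent Feature Extraction 10.7.1.1 (per the submitters' processing notes). The deposited values are processed signal intensities on a linear scale, background-subtracted and detrended, without scaling between arrays, per the file headers; mean and local background intensities and spot flags were also read. The deposited series table holds the same intensity averaged over spots. Probe coordinates are mm9, per the file headers. Spots flagged as outliers were left out, log2 processed signals had the array's 75th percentile subtracted, and a probe passed the filter if a share of 0.5 or more of its spots exceeded background by the scanner flag on each array of some group. The kept probe of highest mean signal stood for its gene.

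Groups were compared with limma 3.58.1 (R 4.3.3; 1 fit over 9 arrays with eBayes, Benjamini-Hochberg over 23965 genes), which was tested on simulated data. Folds against a group not above background on any array are lower bounds. Pairs were compared by exact permutation. Precision is limited by 3 arrays a group. Figures used matplotlib 3.10.9 in Python 3.11.15.

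Per-array values are given for the isozymes of most positive and most negative change of each step, the marks of the set, members without a sister isozyme, and the 5 members of smallest p after the Cav1 siRNA; list genes named are among the 2 most positive and 2 most negative calls, and some of these are not reported here. The members and lists were chosen with earlier results of these data known. Alternatives changed background correction, scaling, filter, probe rule, slide, replicate block, weights, trend, groups fitted and arrays used.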

Additional observations from a re-analysis of the deposited data

How the results depend on the processing

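For nc minus qhsc, 18 of 32 members were called under every alternative in which they were tested, 10 under some and 4 under none; 6 of the 18 (Eno2, Fbp1, G6pc, Pck1, Pklr and Slc2a2) could not be tested with the filter on all 9 arrays. Averaging all kept probes reversed Eno1 (+0.54) and Pfkp (-0.96). Requiring signal above background on all 9 arrays left 26 members, with 5 called lower in nc minus qhsc and also 5 in si-cav minus qhsc, and with 15 pairs not overlapping in nc minus qhsc and 3 in si-cav minus nc, since fewer genes were tested. Pairs not overlapping in si-cav minus nc numbered 10 within slide 2 and 6 to 10 when an array was left out (10 without nc replicate 1 or 3 or si-cav replicate 1 or 2). Groups with fewer arrays separate more easily, so these higher counts cannot be set against the count with all arrays. Within slide 1 nc minus qhsc had 7615 genes called, with fewer arrays, and the slide as a block left 10141 called in si-cav minus qhsc. In si-cav minus nc, genes called over all genes were 7 with normexp, 6 with the stricter filter, 656 with array weights (4 of them members), 4 with an intensity trend, 5 with only the 2 groups fitted, and 0 to 2 when an array was left out (2 without qhsc replicate 1); the cause was not tested. Calls among the members in nc minus qhsc stayed at 21 to 25 when an array was left out. Pgam1 was not called without nc replicate 1 (adjusted p = 0.0505), and Gpi1 (+0.32), Pfkfb2 (+0.40) and Tpi1 (+0.54) were called without qhsc replicate 3. The calls higher in nc made up 61.8% of all calls, but 46.2% with normexp and 47% without the filter; among members the share was 54.5%, and 70.6% with the stricter filter. The median change over all genes was +0.319, -0.125 with normexp, +0.466 with median scaling and -0.211 without the filter. With the replicate number as a block, 22 members were called in nc minus qhsc and 0 in si-cav minus nc, and 15837 genes in nc minus qhsc. The deviations of same-numbered arrays from their group means had correlations of -0.11 to 0.17. These correlations cannot show whether same-numbered samples came from the same animals or preparations, which the labels do not give. Dim probes limit Fbp1, Pklr, Pck1 and the qhsc level of Eno2.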
